A study of Drosophila mojavensis with 14 samples.

Results

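Transcript levels in the lower reproductive tract of Drosophila mojavensis females 2 h after copulation with a male of their own species (conspecific mating) were set against those of virgin females. The comparison took the samples labelled conspecific at 2 hours and those labelled virgin, 2 arrays each, which is 4 of the 14 arrays in the series, and all 14519 transcripts on the array. All females came from the line ANZA 402.17 of D. mojavensis, an isofemale line (the descendants of a single wild female), so the results describe that line only. Mated females had met 2 males in a vial, and the males were removed after copulation. Virgin females were never mated and were dissected alongside. Flies were 10 to 12 days old, and each sample pooled 20 to 25 tracts and was called a biological replicate in the labels. The other groups, used here only for direct comparisons, were conspecific matings at 15 min and 6 h and matings with Drosophila arizonae males (heterospecific, also from an isofemale line) at 15 min, 2 h and 6 h, with 2 arrays each.

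The lower reproductive tract of a Drosophila female holds the uterus or bursa, which receives the ejaculate, and the seminal receptacle and spermathecae, which store sperm. Males transfer sperm together with seminal fluid proteins made in the accessory glands and other male organs, and in D. melanogaster these proteins alter egg laying, sperm storage and receptivity to further mating. In D. mojavensis a swelling known as the insemination reaction forms in the bursa after copulation. RNA of the female's own cells and RNA that came with the ejaculate cannot be told apart on these arrays, nor can fewer cells of a type be told apart from less RNA per cell.

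Levels are normalized log2 probe intensities summarised over the probes of a transcript, 5 for 13925 of the transcripts and 4 for 592, and a difference of 1 on this scale is 2-fold. Transcripts carry a GI number (14471) or a symbol (48), and 0 of these names matched the reference gene table, so a GI number is given with no function. Of the symbols in 18 gene lists drawn up for this tissue only cbt was on the array by name, so the labelled tissue could not be checked against its markers. Raw upper quartiles of probe intensity were 1056 on virgin replicate 2 and 1413 on conspecific 2 h replicate 1, against 2824.5 on virgin replicate 1 and 2330 on conspecific 2 h replicate 2. After normalization the most alike pair of the 4 arrays was conspecific 2 h replicate 2 and virgin replicate 1 (Pearson r of 0.991 across transcripts, SD of the log2 difference 0.323). Both pairs of replicates were less alike, with an SD of 0.56 between the virgin arrays and 0.464 between the conspecific arrays. Virgin replicate 2 also stood apart in a set of 17 transcripts. Their levels there lay between 10.25 and 14.39, and on heterospecific 6 h replicate 2 between 9.20 and 13.20, at least 4-fold above the other 12 arrays. No other pair of the 14 arrays shared such a set.

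At 2 h after conspecific mating 5 of 14519 transcripts were higher than in virgins and 0 were lower (0.0344% called, all higher, limma adjusted p under 0.05). In descending order of change they were GI14761, GI20303, GI10632, GI17635 and GI17134, with rises from 4.25-fold to 36.6-fold. Most other transcripts moved little. From the lowest 5% to the highest 5% the log2 changes ran from -0.38 to 0.47, and the median was 0.00. With limma 522 transcripts (3.6%) had an unadjusted p under 0.05, 350 higher (2.41%) and 172 lower (1.18%). If none had changed, about 5% would pass that cut. Median scaling gave 309 higher and 15 lower at that cut, and cyclic loess 286 and 222. The median standard error was 0.22, so the 95% interval of a typical transcript reached 0.50 to either side of its log2 change.

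**Figure D1:**
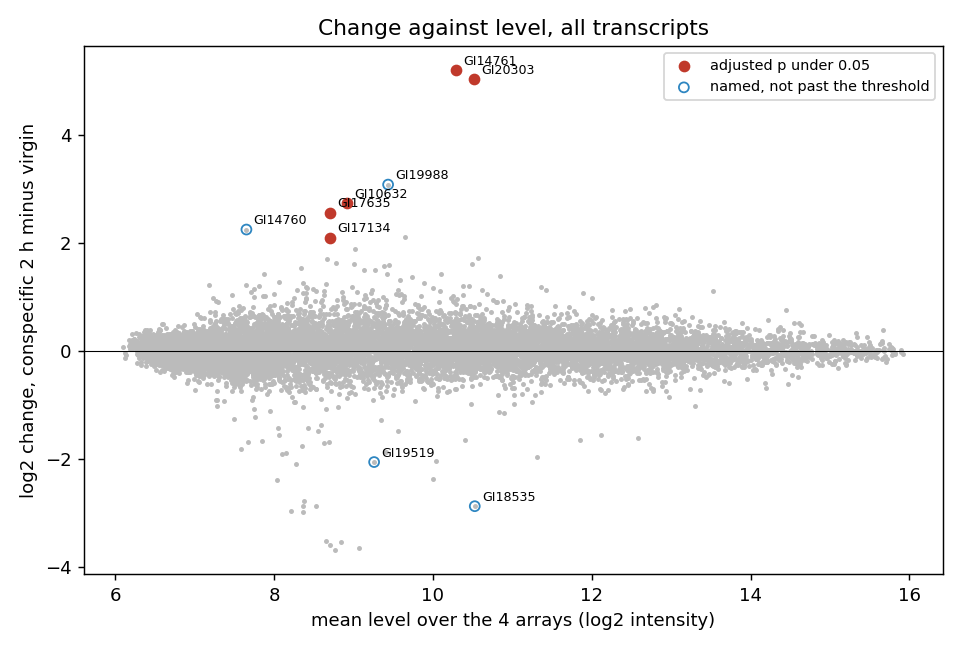
Each grey point is a transcript, with its mean level over the 4 arrays in log2 intensity on the x axis and its log2 change, conspecific 2 h minus virgin, on the y axis. The 5 transcripts past the threshold (filled) lie between 2.09 and 5.20, and 13 of the 16 points that are at least 4-fold lower belong to the set of 17 transcripts that were high on virgin replicate 2.

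The large changes were unequal in how well the arrays agreed. All 8 transcripts that were at least 4-fold higher had both conspecific arrays above both virgin arrays. Of the 16 that were at least 4-fold lower, only 9 had arrays that did not overlap, and 14 lay on virgin replicate 1 within 2-fold of the conspecific mean. The lowest fitted change of all was that of GI16761, at -3.69, with 7.11 on virgin replicate 1, 14.11 on virgin replicate 2, and 6.96 and 6.87 on the conspecific arrays after mating. It belonged to the 17 transcripts, whose changes ran from -3.69 to -1.69, with a lowest unadjusted limma p of 0.0875. Their levels on virgin replicate 1 (6.70 to 9.01) and on the conspecific arrays (6.60 to 8.93) covered almost the same range. The 17 were picked as lower on these arrays than on virgin replicate 2, so both the levels and the p follow largely from that choice. At 2-fold or more, 71 transcripts were higher (0.489%) and 48 lower (0.331%), and the arrays did not overlap for 62 (0.427%) and 26 (0.179%) of them.

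GI14761 showed the highest change. Its level was 7.32 and 8.07 on the virgin arrays and 12.97 and 12.81 on the conspecific 2 h arrays. Both conspecific arrays were thus far above both virgin arrays, by a log2 change of 5.20 (36.6-fold, SE 0.30, limma adjusted p = 5.56e-05). All 5 of its probes separated the groups. In raw intensity the probe with the highest signal went from 315 and 300 in virgins to 7583 and 9026, while the first probe, which already gave 486 and 600 in virgins, reached 1605 and 2456. The log2 change was accordingly 2.02 for the first probe and 5.22 to 5.38 for the other 4, of which those at positions 253, 259 and 265 of the transcript start so close together that they are not independent readings.

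GI20303 rose almost as far. The virgin arrays were close together at 8.04 and 7.97 and the conspecific 2 h arrays at 13.17 and 12.89, a log2 change of 5.02 (32.5-fold, SE 0.40, limma adjusted p = 0.000767). It was the only one of the 5 above the background limit on both virgin arrays, where that limit was 7.57 and 7.73. The other 4 passed the limit on 1 virgin array only. The folds of all 5 thus rest on a virgin level close to background. All 5 probes of GI20303 rose by similar amounts, from 4.80 to 5.51. On its strongest probe the raw intensity went from 702 and 393 to 15702 and 18773.

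**Figure D2:**
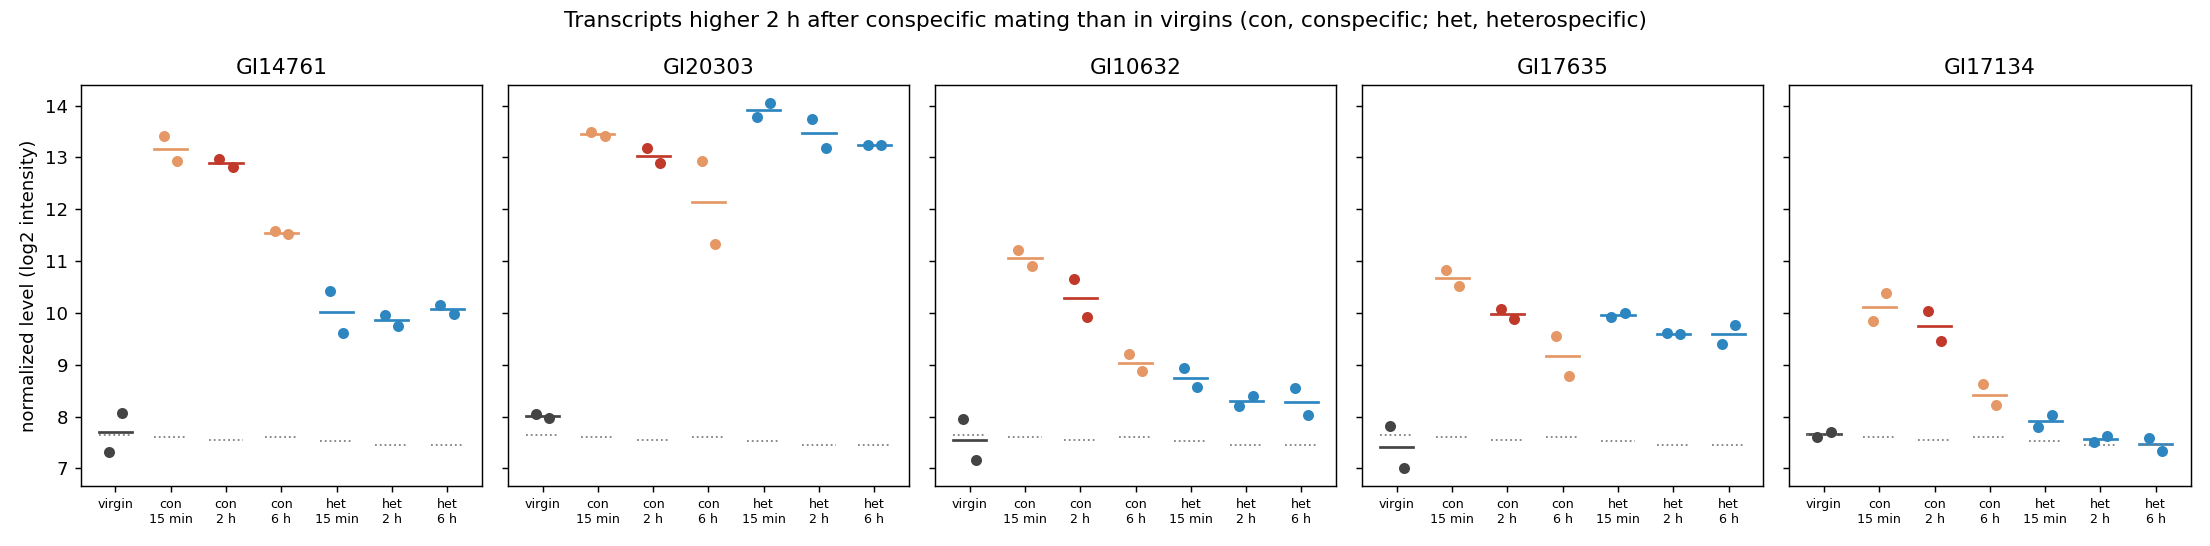
Normalized levels (log2 intensity, y axis) of the 5 called transcripts on all 14 arrays, by group on the x axis (con, conspecific; het, heterospecific). Points are arrays, solid bars are group means and dotted bars are the mean background limit of the group. Every conspecific 2 h point lies above both virgin points, and in each panel the conspecific means descend from 15 min to 6 h.

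The rises of GI10632, GI17635 and GI17134 were smaller. GI10632 was at 7.95 and 7.17 in virgins and at 10.65 and 9.93 after mating, a change of 2.73 (6.65-fold, SE 0.31). GI17635 was at 7.83 and 7.02 in virgins and at 10.07 and 9.88 after mating, a change of 2.55 (5.85-fold, SE 0.30). For both transcripts virgin replicate 2 was the lower virgin array, by close to the same margin, and neither group overlapped the other. GI17134 was at 7.61 and 7.71 in virgins and at 10.03 and 9.47 after mating, a change of 2.09 (4.25-fold, SE 0.24). The limma adjusted p of each of these 3 transcripts was 0.0126.

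Their probes did not all move alike. All 4 probes of GI10632 and all 5 of GI17635 separated the groups, with log2 changes of 1.29 to 3.22 and 1.98 to 3.01. Of the 5 probes of GI17134 only 3 did, with changes of 2.09, 2.47 and 3.06. The first and last probes of GI17134, which were the brightest in virgins (664 and 443, and 822 and 686, in raw intensity), changed by 0.00 and 0.62 and their arrays overlapped. The summary of GI17134 therefore depended on how its probes were combined, and with the mean of the probes its change was 1.65 (limma adjusted p = 0.208).

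**Figure D3:**
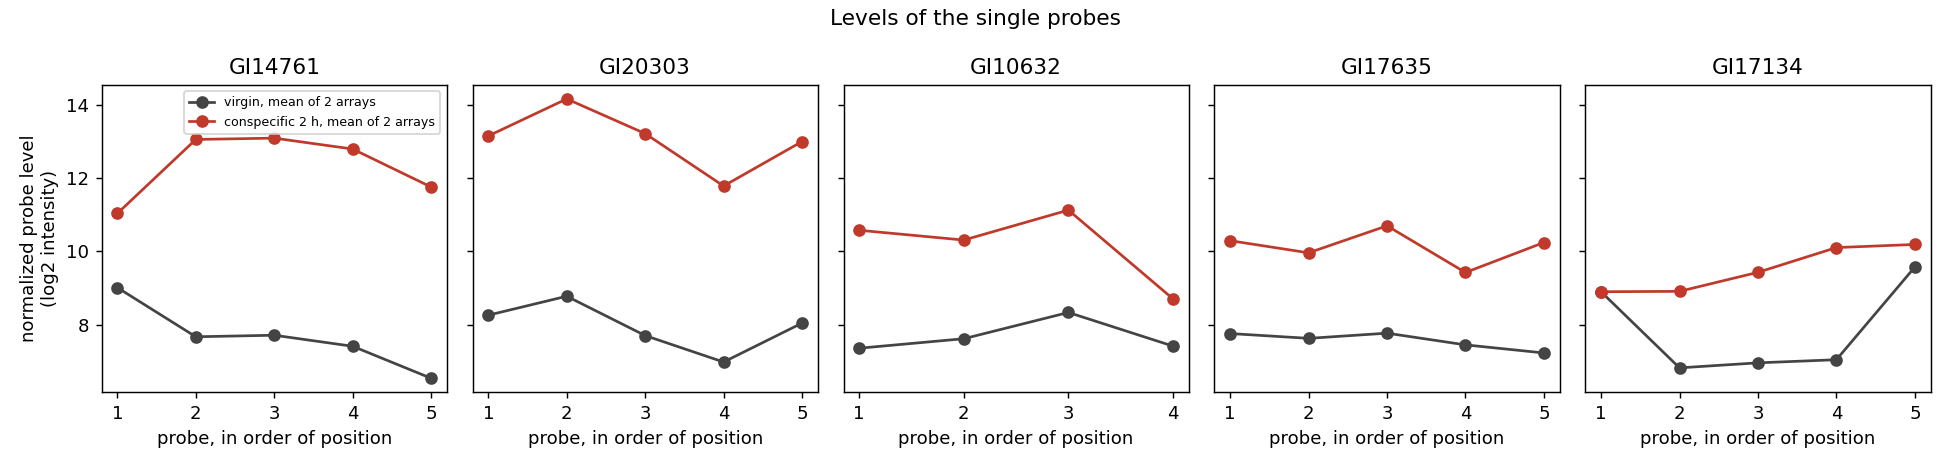
Normalized probe levels (log2 intensity, y axis) of the 5 called transcripts, with probes in order of their position in the transcript on the x axis. Points are means of 2 arrays, virgin in grey and conspecific 2 h in red. The lines run apart at every probe except the first of GI17134, where they meet, and they are close at its last probe.

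Among the 4 arrays compared, each was left out in turn, as were the other 10. Fits without 1 of the other 10 cannot move a change over virgin, only its estimated spread. Leaving out either array of such a group gave the same fit, so these 10 are not separate checks. GI14761 and GI20303 stayed past the threshold in all 14 such fits, with changes of 4.82 to 5.57 and of 4.88 to 5.17. Without virgin replicate 2 or without conspecific 2 h replicate 1 the count was 2, and GI10632, GI17635 and GI17134 lost their calls (limma adjusted p of 0.124 and of 0.151 to 0.163). The call of GI17635 was also lost without conspecific 2 h replicate 2 (0.104) and that of GI17134 without virgin replicate 1 (0.0837). The intensities of all 4 arrays were extracted from their images on the same day, per the file headers, and with that day as a block over the 14 arrays all 5 were called. A fit of the 8 arrays of that day called GI14761 and GI20303, with the same changes for the other 3 (2.73, 2.55 and 2.09) but a limma adjusted p of 0.829.

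The change at 2 h was compared with that at other times through direct differences between the mated groups, in which the virgin arrays cancel. All 4 comparisons of this report contain the conspecific 2 h arrays and are not independent of each other. Between 15 min and 2 h no difference of the 5 transcripts passed the threshold (limma adjusted p = 1). GI10632 differed by -0.77 (95% interval -1.47 to -0.08) and GI17635 by -0.70 (-1.36 to -0.04). For GI14761 the difference was -0.28 (-0.94 to 0.38), for GI20303 -0.42 (-1.30 to 0.46) and for GI17134 -0.36 (-0.90 to 0.17). The lower ends of the 5 intervals ran from -1.47 to -0.90, so equal levels at 15 min and 2 h were not shown.

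From 2 h to 6 h all 5 transcripts had a negative difference, and none passed the threshold over all transcripts. GI14761 was at 11.59 and 11.52 at 6 h, below both 2 h arrays, a difference of -1.34 (95% interval -1.995 to -0.683, limma adjusted p = 0.936). GI17134 was at 8.63 and 8.22, a difference of -1.32 (-1.86 to -0.79, limma adjusted p = 0.779). GI10632 differed by -1.24 (-1.94 to -0.55) and GI17635 by -0.80 (-1.45 to -0.14), again without overlap of the arrays. The 6 h arrays of GI20303 lay at 12.93 and 11.34, so that 1 of them fell between the 2 h arrays, and its difference was -0.90 (-1.78 to -0.02). Over all transcripts limma called 0 between 2 h and 6 h. At an unadjusted limma p under 0.05 there were 763 (5.26%), 283 higher at 6 h (1.95%) and 480 lower (3.31%). Conspecific 6 h replicate 2 had its intensities extracted on another day than replicate 1 and both 2 h arrays. Raw upper quartiles were 1183 on 6 h replicate 1 and 2404 on replicate 2. With that day as a block 0 were called, and 1797 of 14519 had an unadjusted limma p under 0.05.

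Setting the 2 h matings side by side by species of the male separated the 5 transcripts. The probes are named for D. mojavensis. How well any RNA from D. arizonae males binds them was not tested, for these or the other heterospecific values. GI14761 was at 9.97 and 9.75 on the heterospecific 2 h arrays, lower than after conspecific mating by a log2 difference of -3.03 (SE 0.30, limma adjusted p = 0.0061). GI17134 was at 7.503 and 7.623, close to its virgin levels, with a difference of -2.18 (SE 0.24, limma adjusted p = 0.0137). GI10632 was at 8.21 and 8.41, a difference of -1.98 (95% interval -2.68 to -1.29) that did not pass the threshold (limma adjusted p = 0.226). For GI20303, at 13.75 and 13.19, the difference was 0.44 (-0.44 to 1.32), and for GI17635, at 9.62 and 9.59, it was -0.37 (-1.02 to 0.29). Neither of these last passed the threshold (limma adjusted p = 0.736 and 0.708), and the interval of each takes in a 2-fold difference.

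**Figure D4:**
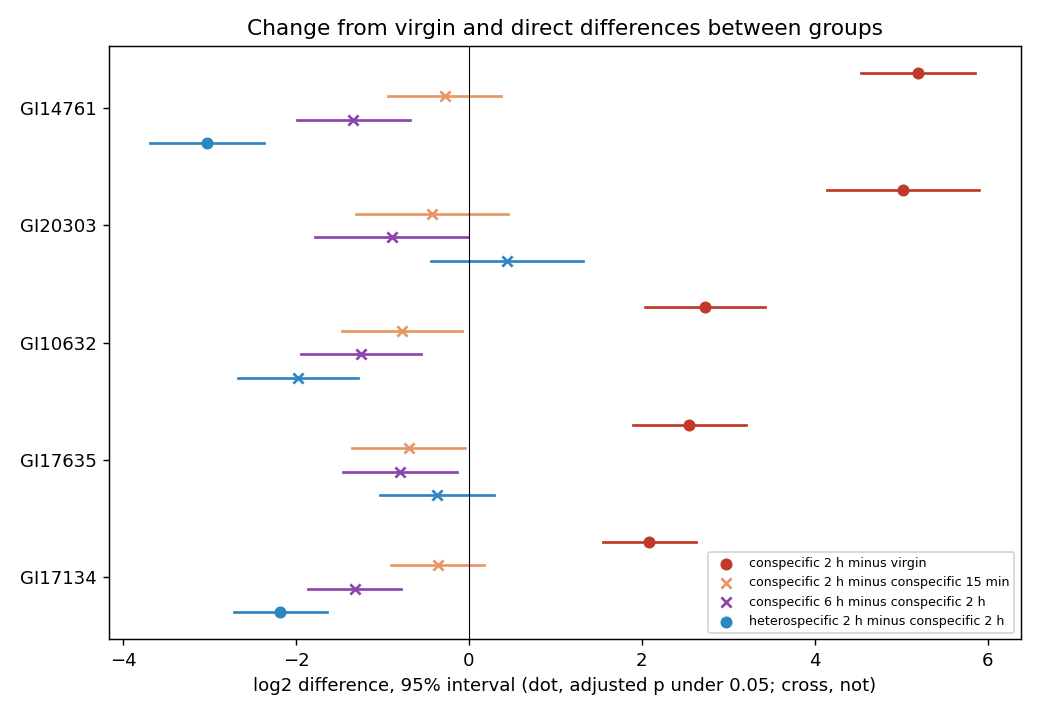
Log2 differences (x axis) of the 5 called transcripts in 4 comparisons, with 95% intervals from the limma fit. Dots passed an adjusted p of 0.05 and crosses did not. Only GI14761 and GI17134 have a dot for heterospecific against conspecific mating at 2 h, at -3.03 and -2.18.

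The direct comparisons called 3 further transcripts that were not called against virgins at 2 h. Against 15 min, 0 transcripts were higher and 2 were lower at 2 h (0.0138%), with 703 at an unadjusted limma p under 0.05 (4.84%, higher 2.44% and lower 2.4%). GI11600 was at 8.87 and 9.12 at 15 min and at 7.21 and 7.19 at 2 h, where it was not above background, so it was at least 2.71-fold lower (limma adjusted p = 0.00451). Its virgin levels of 7.19 and 7.01 were not above background either. GI15259 was at 9.66 and 10.10 at 15 min and at 7.90 and 7.69 at 2 h, a difference of -2.09 (SE 0.25, limma adjusted p = 0.0411). At 2 h both of its arrays were also below both virgin arrays (8.66 and 8.23), by a change of -0.65 that did not pass the threshold (limma adjusted p = 0.999). Both calls were lost with median scaling (limma adjusted p = 0.776) and cyclic loess (0.114), and over all 30 alternatives that of GI11600 was lost in 9 and that of GI15259 in 22.

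Between the matings at 2 h, 3 transcripts differed (0.0207%), of which 1 was higher after heterospecific mating (0.00689%) and 2 were lower (0.0138%), with 1136 at an unadjusted limma p under 0.05 (7.82%, higher 3.82% and lower 4%). The higher transcript was GI11382, at 8.72 and 8.54 after heterospecific mating. It was not above background after conspecific mating (6.76 and 6.56) or in virgins (6.82 and 6.71), and was thus at least 2.10-fold higher after heterospecific mating (limma adjusted p = 0.0061). The heterospecific 2 h arrays had their intensities extracted on another day than the conspecific 2 h arrays. With that day as a block GI14761 and GI11382 were still called, while the difference of GI17134 was -1.86 (limma adjusted p = 0.411). That fit called 4 transcripts, 2 of them shared with the main fit. Its day effect rests only on conspecific 6 h and heterospecific 15 min, the groups with 1 array on each day. GI11382 was not called with median scaling (0.0813), and all 3 calls were lost without any 1 of the 4 arrays compared (0.0621 to 0.334).

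Below the threshold, 326 transcripts that were higher and 144 that were lower had separated arrays, an unadjusted limma p under 0.05 and passed the background limit in 1 or both groups. They are part of the 2.41% and 1.18% of all transcripts at that unadjusted p, together 3.6%. The highest changes among them belonged to GI19988 and GI14760. GI19988 was at 8.88 and 6.91 in virgins and at 10.59 and 11.35 after mating, a change of 3.07 (SE 0.60, limma adjusted p = 0.412). The virgin arrays lay far apart, and the change was 4.06 without virgin replicate 1 (limma adjusted p = 0.0441) and 2.09 without virgin replicate 2 (0.856). GI14760 was not above background in virgins (6.40 and 6.66) and stood at 8.01 and 9.54 after mating, at least 2.17-fold higher (limma adjusted p = 0.866). That bound was 3.69-fold without conspecific 2 h replicate 1 and 1.28-fold without replicate 2. In normalized level all 5 probes of both transcripts separated the groups. In raw intensity the second probe of GI19988 did not, with 544 on virgin replicate 1 and 538 on conspecific 2 h replicate 1.

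The lowest changes in that set belonged to GI18535 and GI19519, and they rested mainly on conspecific 2 h replicate 1. GI18535 was at 12.53 and 11.40 in virgins and at 7.10 and 11.08 after mating, a change of -2.88 (SE 1.10, limma adjusted p = 0.999). Without conspecific 2 h replicate 1 its change was -0.89. GI19519 was at 10.13 and 10.45 in virgins and at 7.06 and 9.39 after mating, a change of -2.06 (limma adjusted p = 0.999), and without that array the change was -0.90. All 5 probes of each were, in normalized level, lower on both conspecific arrays than on both virgin arrays. The raw intensities of GI18535 on conspecific 2 h replicate 1 were 178 to 237, against 2156 to 3397 on replicate 2.

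The 48 transcripts named by a symbol gave no call, against 0.0344% over all transcripts. With limma 1 of them was higher at an unadjusted p under 0.05 and 0 were lower, against 2.41% and 1.18% of all transcripts. Their median log2 change was -0.05, beside 0.00 for all transcripts. The arrays did not overlap for 4 that were higher and 6 that were lower, against 12.5% and 12.7% of all transcripts, and 16 of the 48 were not above background in either group. Median scaling moved the median of all transcripts to 0.16 and that of the 48 to 0.14, and left 0 of the 48 with an unadjusted limma p under 0.05, while cyclic loess moved these medians to -0.02 and -0.07 and left 2, both lower.

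The 4 Acp transcripts carry the usual name of Drosophila accessory gland proteins, seminal fluid proteins that males pass to females. Of them Acp2, Acp11 and Acp48 were not above background in virgins or at 2 h after conspecific mating. Acp2 was at 6.68 and 6.96 in virgins and at 6.60 and 6.65 after mating. On the heterospecific 2 h arrays Acp2 stood at 9.46 and 9.91, at least 4.37-fold above the conspecific level (limma adjusted p = 0.226). Acp7 passed the limit in both groups, at 7.78 and 7.73 and at 7.78 and 8.07, a change of 0.17 (95% interval -0.23 to 0.57). The median change of the 4 was 0.08, and 0 of them had an unadjusted limma p under 0.05.

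Of the 25 transcripts named Tes, 12 were not above background in either group. Their median change was -0.04. Tes124 was the single symbol with an unadjusted limma p under 0.05 (0.0224, adjusted 0.999), at 7.70 and 7.35 in virgins and 8.06 and 8.07 after mating. Tes105 had the highest change of the symbols, 0.72 (95% interval -0.09 to 1.54), but its arrays overlapped, with 9.86 and 8.80 in virgins and 10.44 and 9.67 after mating. The widest interval was that of Tes129 (-1.51 to 1.12), whose virgin arrays stood at 12.41 and 10.78. All 6 moj transcripts were above background, with changes from -0.32 to 0.12 and a median of 0.02, which became 0.33 with median scaling and -0.04 with cyclic loess. The brightest of them, moj29, was at 15.08 and 15.44 in virgins and at 14.79 and 15.09 after mating, so that its arrays overlapped.

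The remaining 13 symbols name genes of metabolism, gene regulation and cell surface. Xdh, the gene of xanthine dehydrogenase, which makes uric acid from purines, was at 9.79 and 9.88 in virgins and at 10.08 and 9.05 after mating, a change of -0.27 (95% interval -1.11 to 0.57). The alcohol dehydrogenase genes Adh1 and Adh2, close relatives whose probes were not tested for cross-reaction, changed by -0.11 (-0.60 to 0.39) and -0.17 (-0.52 to 0.19). The arrays of Xdh, Adh1 and Adh2 overlapped between the groups.

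Among the regulators, cbt (cabut, a transcription factor) changed by -0.35 (-1.10 to 0.41), CtBP, a transcriptional corepressor, by 0.15 (-0.26 to 0.55) and per, the circadian clock gene period, by -0.12 (-0.64 to 0.40). The splicing factor gene snf was at 13.17 on both virgin arrays and at 13.46 and 13.33 after mating, a change of 0.22 (-0.17 to 0.62). Trap100, which codes for a subunit of the Mediator complex, had the most negative change of all symbols, -0.57 (-1.17 to 0.03), with 8.84 and 9.63 in virgins and 8.94 and 8.39 after mating, so that its arrays overlapped. The sugar transferase gene beta4GalT7 was higher on both conspecific arrays (12.54 and 12.26 against 12.11 and 11.93), by 0.38 (-0.07 to 0.84). Marf, a gene of mitochondrial fusion, was lower on both (9.82 and 10.00 against 10.42 and 10.04), by -0.32 (-0.91 to 0.26). The change of Dscam, which codes for a cell surface receptor, was -0.02 (-0.67 to 0.62), and ST6Gal, a sialyltransferase gene, was not above background in either group.

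**Figure D5:**
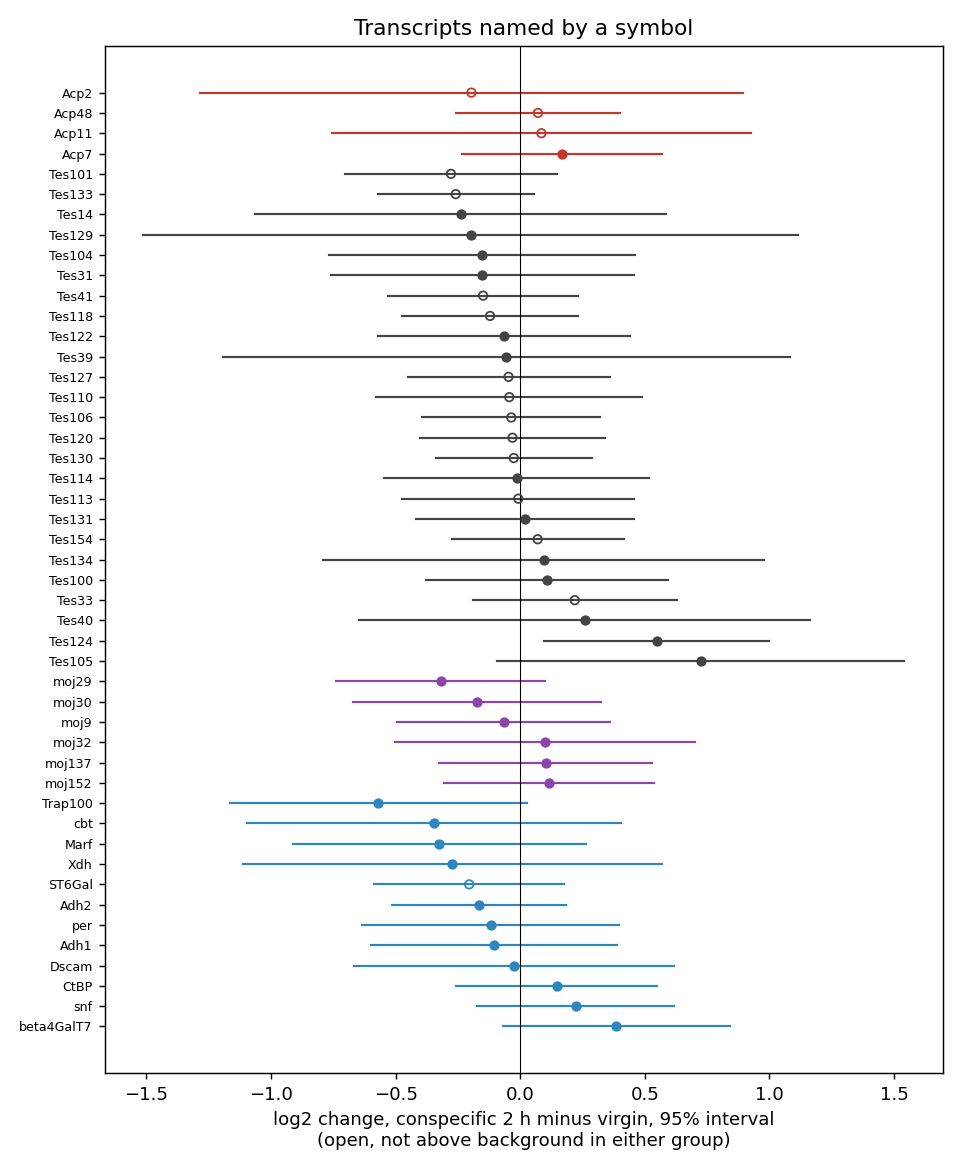
Log2 changes, conspecific 2 h minus virgin (x axis), of the transcripts named by a symbol that are reported here, with 95% intervals from the limma fit, ordered by name class. Open points were not above background in either group. All points lie between -0.57 and 0.72, and only the interval of Tes124 lies wholly above 0.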

How the data were processed

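RNA was amplified and labelled with Cy3 before hybridisation to 1-colour NimbleGen arrays, per the labels' protocols. Per the file headers NimbleScan 2.4.67 extracted the deposited values, a single raw intensity for each perfect-match probe. The deposited value table held the same intensity for every probe (0 differed), although the submitters' processing notes name RMA, so all 71998 probes were normalized here: normexp with an offset of 50, quantile normalization over 14 arrays, log2, and median polish per transcript (R 4.3.3, limma 3.58.1). Because of the offset, folds of dim transcripts come out too small. No control probes were named, so the background limit of an array is the mode of its transcript levels plus 2 SDs of the values left of it. A group is not above background where both arrays are below it. A fold against such a group is a lower bound: on each of its arrays the limit replaces any level beneath it before the means are compared.

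Groups were compared with limma, 1 mean per group over 14 arrays (7 residual and 3.56 prior degrees of freedom), 2-sided, with Benjamini-Hochberg adjustment over 14519 transcripts and a threshold of 0.05, and the fit was tested on simulated data. The number of arrays limits the precision. Named transcripts were all those past the threshold, the 2 highest and 2 lowest changes below it among transcripts with separated arrays, an unadjusted p under 0.05 and a level above background, the Acp symbols, Xdh, Adh1, Adh2 and any symbol meeting those criteria. Others were named after their values were seen, and 1 symbol is not reported here. The comparison, lists and rules were chosen with earlier results of these data known.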

Additional observations from a re-analysis of the deposited data

Results flagged for a closer look

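In 5 cases the 2 h change differed from the change at another time or after the other mating by a test of the difference itself. Between 15 min and 2 h after conspecific mating GI11600 differed by -1.79 and GI15259 by -2.09 on the fitted log2 scale (limma adjusted p = 0.00451 and 0.0411). At 2 h, heterospecific minus conspecific, the fitted difference was 1.97 for GI11382 (limma adjusted p = 0.0061), -3.03 for GI14761 (0.0061) and -2.18 for GI17134 (0.0137). The values of GI11600 and GI11382 rest on a group not above background.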

How the results depend on the processing

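The 5 rises over virgin kept their direction in all 30 alternatives. In many of these the change itself was fixed, as with a block or an array of another group left out. The count stayed within 1.5 times in most alternatives. It was 1 in a fit of the compared groups alone and without the 2 dim arrays of the comparison (added after the data were seen), 2 on the extraction day of these arrays alone, 3 without the 4 dim arrays of the series and 8 once the probe slope was a covariate. The added calls were GI14760, GI19988 and GI22307 with the slope and GI14760 without the 4 dim arrays, where GI10632, GI17635 and GI17134 were lost (changes of 1.98, 2.05 and 1.86, adjusted p of 0.151, 0.0637 and 0.0661). Without the 4 dim arrays the virgin and each conspecific group keep 1 array, assumed to vary like the other groups, as do virgin and conspecific 2 h without the 2 dim arrays. Leaving out 1 array gave 2 to 6, the 6 without virgin replicate 1 (GI12924, lower, and GI19988 added, GI17134 lost) or without either conspecific 6 h array (GI12300 added). GI11177 was called lower without conspecific 2 h replicate 2. GI14761 had an adjusted p of 0.13 in the fit of the compared groups alone and GI20303 of 0.134 without the 2 dim arrays. Without background correction GI17134 changed by 1.58 (0.287).

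For 2 h minus 15 min the count of 2 became 1 without background correction, with the mean of the probes, the day as a block, the slope or the replicate block, and 0 with median scaling, cyclic loess, the compared groups alone, that day alone or without the 4 dim arrays (unadjusted limma p under 0.05 for 166, 704, 441, 395 and 995). Leaving out 1 array gave 0 to 2. The 0 for 6 h minus 2 h became 22 (all higher) without the 4 dim arrays, which sets 1 array against 1, and 0 to 18 without 1 array, the 18 (16 higher, 2 lower) without conspecific 6 h replicate 1. For heterospecific minus conspecific at 2 h the count of 3 was 0 in the compared groups alone (1861 unadjusted) and 0 to 9 without 1 array, with 9 (7 higher, 2 lower) without either heterospecific 15 min array. That comparison could not be made within a day. The causes of these shifts in count were not tested.

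The labels give replicates a number and name no pairing. Deviations of equal numbers correlated between groups from -0.63 to 0.51, and at -0.384 between virgin and conspecific 2 h. Whether equal numbers share anything more was not tested. The replicate block left the count over virgin at 5 (the same transcripts), and so did the crossed replicate block, chosen after the data were seen. For 2 h minus 15 min the plain replicate block gave 1 and for heterospecific minus conspecific 4.

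Over virgin, GI19988 and GI14760 were each called under 2 alternatives and GI18535 and GI19519 under none. Of the 48 symbols 0 were called under any alternative, and 36 changed sign under at least 1, among them Acp11, Acp48, Xdh, Adh1, Adh2, Tes105 and Dscam, while 12 kept theirs, among them Tes124, Acp7 and Trap100. The slope of probe level with position in a transcript, which can vary with RNA quality, was 0.189 and 0.239 on the virgin arrays and 0.285 and 0.138 on the conspecific 2 h arrays. Its part in the results was tested only as a covariate.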

Other observations

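Besides the transcripts named by rule, GI22307, chosen after its values were seen, completed the 8 that were at least 4-fold higher. It was at 8.48 and 8.72 in virgins and at 11.20 and 10.21 after conspecific mating, a change of 2.10 (limma adjusted p = 0.288).

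The transcripts whose 7 group means followed those of a called transcript most closely are given as a description. The series has only 7 groups, so high values arise readily among 14519 transcripts. For GI17635 the third closest was GI19988 (Pearson r of 0.973 over 7 groups). For GI10632 the second closest was GI23726 (r of 0.980), which stood at 6.58 in virgins and 7.79 at 2 h (limma adjusted p = 0.308). The closest to GI14761 was GI11248 (r of 0.977), to GI20303 GI10198 (0.986) and to GI17134 GI18269 (0.987), and their own changes over virgin were 0.37, 0.38 and 0.19, none past the threshold.

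The 17 transcripts that were high on virgin replicate 2 and heterospecific 6 h replicate 2 held 0 symbols. Their median level on virgin replicate 2 was 12.58, and 1 of them was above background in the conspecific 2 h group.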
